A study of Mus musculus with 15 samples.

Results

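The CpG-rich promoter peaks are 16369 regions of H3K27ac enrichment at start sites of protein-coding genes in 1 mouse tumor, chosen from a list of 122375 peaks (13.4% of the list, Wilson 95% interval 13.2 to 13.6%). A peak was a promoter peak when it overlapped the 2 kb on either side of the start site of a curated RefSeq transcript, and it was assigned to the start site nearest its summit, the position of highest signal. It was kept when the observed number of CpG dinucleotides within 500 bp of that start site was at least 0.6 of the number expected from the C and G content (CpG o/e) and no coding start site pointed the other way within 1 kb upstream. The same steps gave 6270 peaks at CpG-poor start sites and 2259 at divergent start sites, which serve below for comparison. The measured values chose no member beyond the fact that a peak was called.

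The tumor came from an MCP mouse, which carries Myf6-Cre, the alleles Cdkn2a(Flox/Flox) and Pax(3P3F/P3F), as the labels spell the Pax3(P3Fm/P3Fm) of the study, and the reporter R26-tdTom, and is a model of fusion-positive rhabdomyosarcoma (FP-RMS), a childhood tumor with features of skeletal muscle that depends on PAX3-FOXO1 (P3F), a fusion of 2 transcription factors. Cre from the Myf6 locus, which is active in myogenic cells, was used to turn on P3F and the red reporter tdTomato and to delete the floxed part of the tumor suppressor Cdkn2a. The series holds 15 CUT&RUN libraries of MCP tumors and of TCP tumors, in which Cre came from Tek, and the list used here is that of the library MCP H3K27ac replicate 5. Cells were dissociated by enzymes and sorted as live cells. Age is not given in the labels, nor is which tumor of the study this library came from. The study reports several tumor types in MCP mice and variation between MCP tumors. With 1 list there are no replicates, so every value is a description, and intervals cover counting error only.

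In mammals most CpG dinucleotides are methylated and have been lost over time. CpG islands are the stretches that escaped, and they hold the start sites of nearly all housekeeping genes and of many developmental regulators. H3K27ac, an acetyl group that the enzymes EP300 and CREBBP place on histone H3, marks the nucleosomes beside active promoters and enhancers, whereas silent CpG islands are often held by Polycomb proteins. Nucleosomes beside an active start site tend to lie at regular steps, and the start site itself is kept open.

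Promoters from the ends of the scales of fold enrichment and CpG o/e are printed first, as examples of how CpGs are spread before start sites. They are too few to compare start sites with and without a peak. The members were chosen on the 1001 bases around the start site, of which these lines show a part. Each line gives the 250 bases before the start site in the direction of transcription, from the RefSeq assembly GRCm38 (mm10), with every CpG in capitals. Nras, C1d and Actr3 had the highest fold enrichment, and Qk had the highest CpG o/e of any start site with a member peak. Spag1 lay just above and Ebpl just below the CpG threshold. H2ac19 had the highest CpG o/e of any start site without a peak, and Mxi1 the highest where no peak number was absent from the list nearby, a line added after the values were seen.
Nras, chr3:103058035-103058284, plus strand: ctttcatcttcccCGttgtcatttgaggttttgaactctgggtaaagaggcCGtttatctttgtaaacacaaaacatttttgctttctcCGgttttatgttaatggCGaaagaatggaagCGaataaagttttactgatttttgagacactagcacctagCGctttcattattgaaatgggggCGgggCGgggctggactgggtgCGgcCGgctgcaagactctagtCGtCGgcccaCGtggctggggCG
C1d, chr11:17257438-17257687, plus strand: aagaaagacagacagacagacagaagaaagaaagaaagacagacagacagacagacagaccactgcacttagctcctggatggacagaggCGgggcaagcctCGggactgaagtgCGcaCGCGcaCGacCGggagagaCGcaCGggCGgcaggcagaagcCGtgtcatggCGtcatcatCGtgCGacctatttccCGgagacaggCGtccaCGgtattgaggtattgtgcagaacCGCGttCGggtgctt
Actr3, chr1:125435728-125435977, minus strand: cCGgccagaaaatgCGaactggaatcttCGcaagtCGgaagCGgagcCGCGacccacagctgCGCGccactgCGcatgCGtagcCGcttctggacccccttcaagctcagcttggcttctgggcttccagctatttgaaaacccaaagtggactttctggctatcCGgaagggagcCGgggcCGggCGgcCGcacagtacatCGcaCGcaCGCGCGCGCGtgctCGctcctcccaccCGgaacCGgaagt
Qk, chr17:10319362-10319611, minus strand: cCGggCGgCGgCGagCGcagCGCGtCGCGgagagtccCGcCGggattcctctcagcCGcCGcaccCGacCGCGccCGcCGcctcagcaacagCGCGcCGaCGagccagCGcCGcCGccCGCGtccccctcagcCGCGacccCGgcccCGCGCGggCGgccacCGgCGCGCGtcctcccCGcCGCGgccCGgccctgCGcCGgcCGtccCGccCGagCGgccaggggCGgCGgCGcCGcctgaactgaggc
Spag1, chr15:36179280-36179529, plus strand: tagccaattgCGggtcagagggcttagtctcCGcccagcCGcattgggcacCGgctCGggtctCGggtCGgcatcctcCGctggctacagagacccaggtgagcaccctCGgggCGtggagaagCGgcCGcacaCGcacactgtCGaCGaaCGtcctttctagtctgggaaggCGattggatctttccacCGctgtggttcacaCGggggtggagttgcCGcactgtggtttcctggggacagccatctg
Ebpl, chr14:61360446-61360695, minus strand: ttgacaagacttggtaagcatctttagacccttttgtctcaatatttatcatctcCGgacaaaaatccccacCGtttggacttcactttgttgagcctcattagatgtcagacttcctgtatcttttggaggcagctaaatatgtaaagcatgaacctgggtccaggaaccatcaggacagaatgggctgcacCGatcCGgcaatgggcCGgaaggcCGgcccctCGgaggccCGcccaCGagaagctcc
Mxi1, chr19:53329163-53329412, plus strand: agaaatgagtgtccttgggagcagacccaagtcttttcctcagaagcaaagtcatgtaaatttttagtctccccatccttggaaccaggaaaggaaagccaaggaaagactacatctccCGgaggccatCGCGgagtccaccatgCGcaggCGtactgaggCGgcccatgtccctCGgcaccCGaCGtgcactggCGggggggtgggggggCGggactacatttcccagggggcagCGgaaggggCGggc
H2ac19, chr3:96240375-96240624, minus strand: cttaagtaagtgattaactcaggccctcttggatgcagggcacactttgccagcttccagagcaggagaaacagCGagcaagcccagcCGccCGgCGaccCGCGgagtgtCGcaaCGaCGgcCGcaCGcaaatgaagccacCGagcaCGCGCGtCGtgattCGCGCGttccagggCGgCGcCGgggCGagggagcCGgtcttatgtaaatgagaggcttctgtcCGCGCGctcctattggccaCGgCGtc

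Within these 250 bases Qk, which encodes an RNA-binding protein, held 52 CpGs and had a GC content of 84.8%, and the 1001 bases around its start site had a CpG o/e of 1.22. Nras, a RAS oncogene, held 14 CpGs at a GC content of 48.4%, C1d held 20 at 57.6% and Actr3 27 at 64.0%. H2ac19, a histone gene, held 29 and had no peak, but peak numbers are absent from the list beside it and it has near-identical copies, so whether a peak was called there is not known here. Mxi1, an antagonist of MYC, had a CpG o/e of 1.11 and no peak. The CpG o/e of the printed bases differed from that of the 1001 bases at Mxi1 (0.584 against 1.11) and at Actr3 (1.06 against 0.729), and Spag1, at the threshold over the longer stretch, had 0.794 in the shorter one. Spag1 (at the threshold to 4 decimals), Dusp23 (0.6001) and Mrps18a (0.6002) lay just inside, with fold enrichments of 4.83, 5.89 and 3.93, while Ebpl (0.5997), Rbms1 (0.5997) and Pdcd6 (0.5996) lay just outside, with 4.79, 8.67 and 9.10.

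CpG-rich start sites were mostly occupied. Of 10665 CpG-rich start sites without a divergent neighbour, 7146 had a peak in their window (67.0%, Wilson 95% interval 66.1 to 67.9%). The share was 21.1% (20.4 to 21.8%) of 13246 CpG-poor and 85.8% (84.2 to 87.2%) of 2088 divergent start sites, against 45.1% of all 25999 coding start sites. By gene, 6117 of 9291 genes with a CpG-rich start site had a member peak (65.8%). The remaining 3519 CpG-rich start sites had no listed peak, and at 149 of them (4.23%) a peak number was absent nearby.

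Occupancy rose with CpG content and, at a given CpG content, was lower where GC content was high. It was 56.9% at a CpG o/e of 0.6 to 0.7 (55 to 58.8%, 2660 start sites), 64.1% at 0.7 to 0.8, 71.9% at 0.8 to 0.9 and 78.0% at 0.9 to 1.0 (75.8 to 79.9%, 1579 start sites). Above 1.0 it was 78.9% (74.9 to 82.4%), an interval that overlaps that of the bin before. Between 0.7 and 0.8, 73.4% of start sites under 60% GC were occupied (70.9 to 75.7%) and 57.3% of those at 60% GC or more (55 to 59.5%). Between 0.8 and 0.9 the shares were 82.2% and 67.8%. Occupied CpG-rich start sites had a higher median CpG o/e than empty ones, 0.8 against 0.754, and a lower median GC content, 61.6% against 62.9%.

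The member peaks were of moderate strength and narrow. Fold enrichment, the signal at the summit over the local background of the control, had a median of 5.59 (quartiles 4.45 and 7.11), against 5.22 at CpG-poor and 5.65 at divergent promoters. At 40.7% of the members the recovered background was the lowest of the list, so that among these the fold enrichment follows the number of fragments alone. The median width was 190.0 bp (quartiles 104 and 401 bp), against 169 and 191 bp. Summits held a median of 15 recovered fragments (quartiles 11 and 20), a relative counting error of 25.8%, and 73.5% held fewer than 20. Only 244 members (1.49%) held 41 or more.

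Several peaks usually stood at 1 start site. Of 6588 start sites to which member peaks were assigned, 4682 had 2 or more (71.1%, 70.0 to 72.2%), 1404 had 3, 776 had 4 and 602 had 5 or more. Peaks lay on both sides of 2897 of them (44.0%), downstream only at 2532 (38.4%) and upstream only at 1159 (17.6%). The highest numbers were at Bcar1, an adaptor protein of cell adhesion, with 13 member peaks, at Epc1 and Zfp516 with 11 each, and at Sema4b and Tnpo1 with 10 each. None of these was among the strongest: the highest fold enrichment at Bcar1 was 7.37 and at Tnpo1, a nuclear import receptor, 9.96.

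Few summits lay at the start site. Within 100 bp of it lay 306 of 16369 member summits (1.87%, 1.67 to 2.09%), where an even spread over the window would give 5.02%. The share was 6.44% (5.86 to 7.08%) at CpG-poor and 4.29% (3.53 to 5.21%) at divergent start sites. A summit upstream of a divergent start site is often nearer to its neighbour, and 96.1% of the summits of that class were downstream. Its share is therefore not like for like with the others or with the 5.02%. With RefSeq's predicted start sites added, which was decided once the data had been seen, the member share was 3.61%. Only 264 member peaks covered their own start site (1.61%), against 7.46% at CpG-poor promoters. Over the occupied CpG-rich start sites, 3.89% had a peak over the start site itself, and this share reached 29.7% at 430 bp upstream and 46.4% at 710 bp downstream. At occupied CpG-poor start sites 18% had a peak over the start site, with maxima of 29.7% at 240 bp upstream and 36.3% at 510 bp downstream.

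**Figure D1:**
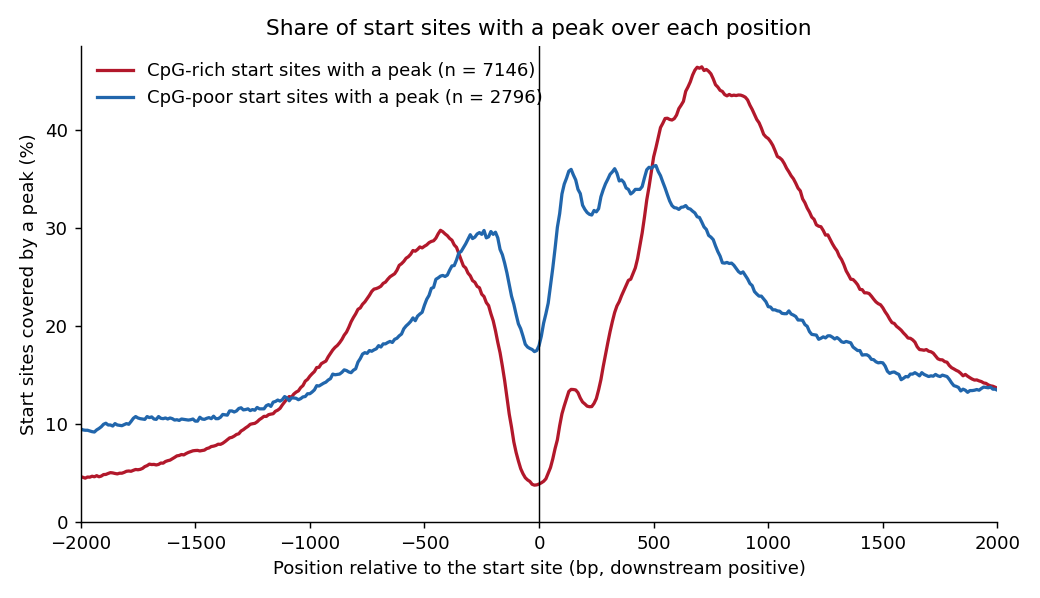
Share of occupied start sites (vertical axis, percent) with a peak over each position from 2000 bp upstream to 2000 bp downstream (horizontal axis), for CpG-rich (red) and CpG-poor (blue) start sites. The red line falls to 3.89% at the start site and the blue line to 18%.

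The gap moved with GC content in both classes. At CpG-rich start sites the share of summits within 100 bp was 6.61% (4.52 to 9.58%) under 50% GC, 4.84% at 50 to 55%, 2.46% at 55 to 60%, 1.53% at 60 to 65% and 0.391% at 65 to 70%. At 70% GC and over, 0 of 1943 summits lay there, which allows a share of up to 0.197%. At CpG-poor start sites it was 7.16% under 50% GC, 7.40% at 50 to 55%, 5.48% at 55 to 60% and 3.97% (2.66 to 5.89%) at 60 to 65%, and at 65 to 70% 0 of 65 summits lay there, which allows a share of up to 5.58%. At 55 to 60% GC the CpG-rich share, 2.46% (2.03 to 2.98%), lay below the CpG-poor share, 5.48% (4.46 to 6.72%). The part of GC content in the gap was not tested.

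**Figure D2:**
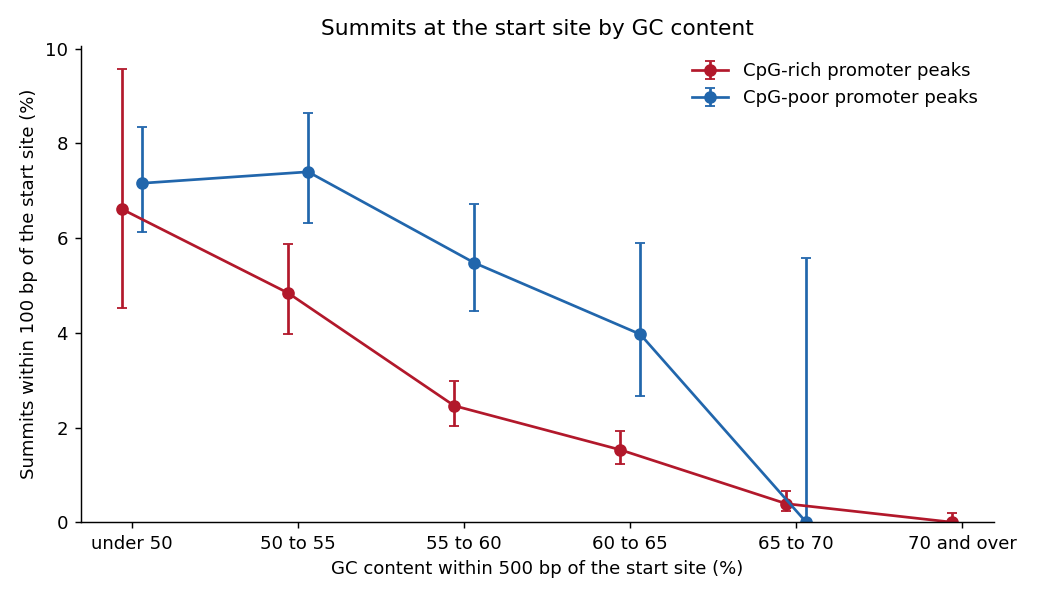
Share of summits within 100 bp of the start site (vertical axis, percent, with Wilson 95% intervals) by GC content within 500 bp of it (horizontal axis, percent), for CpG-rich (red) and CpG-poor (blue) promoter peaks in bins of at least 50 peaks. From the bin of 50 to 55% on both lines fall, and the red line reaches 0 at 70% and over.

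Summits were more often downstream than upstream, and stood at preferred positions. Downstream of the start site lay 10205 summits (62.3%, 61.6 to 63.1%), at a median distance of 842 bp, while upstream summits had a median distance of 524 bp. The strongest peak of a start site was downstream at 64.1% of 6588 start sites. Over all members the median distance was 715 bp (706 to 724 bp). Maxima in the number of summits stood at 185 bp upstream and at 135, 325, 515 and 675 bp downstream, so that neighbouring downstream maxima were 190, 190 and 160 bp apart. Each rose above its surroundings by at least 6 counting errors, from 6.41 for the maximum at 325 bp to 16.4 for that upstream. Between 200 and 250 bp downstream lay 97 summits, against 325 between 100 and 150 bp and 305 between 300 and 350 bp.

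Fewer maxima passed in the other classes, which hold fewer peaks. Divergent promoter peaks had maxima at 125, 325 and 515 bp downstream and CpG-poor ones at 125 and 325 bp downstream and 225 bp upstream. None passed near 675 bp in either class, or near 515 bp in the CpG-poor one, and the positions were not compared by a test. The classes differed in which position was fullest. At CpG-poor start sites the maximum at 125 bp held 286 summits in 50 bp and that at 325 bp held 191. At CpG-rich start sites the maximum at 135 bp held 326 and that at 515 bp held 550. At divergent start sites the maximum at 125 bp held 184 and that at 515 bp held 166. The median CpG o/e of divergent start sites, 0.769, was near the 0.784 of the CpG-rich class, so the difference does not follow CpG content alone. The maximum at 325 bp was the least secure: among members in the strongest 25% of the list the maxima were at 375 bp upstream and at 135, 535 and 715 bp downstream, and none near 325 bp passed. Among members with a -log10 q of at least 5 they were at 185 bp upstream and at 125, 515 and 695 bp downstream, again with none near 325 bp.

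**Figure D3:**
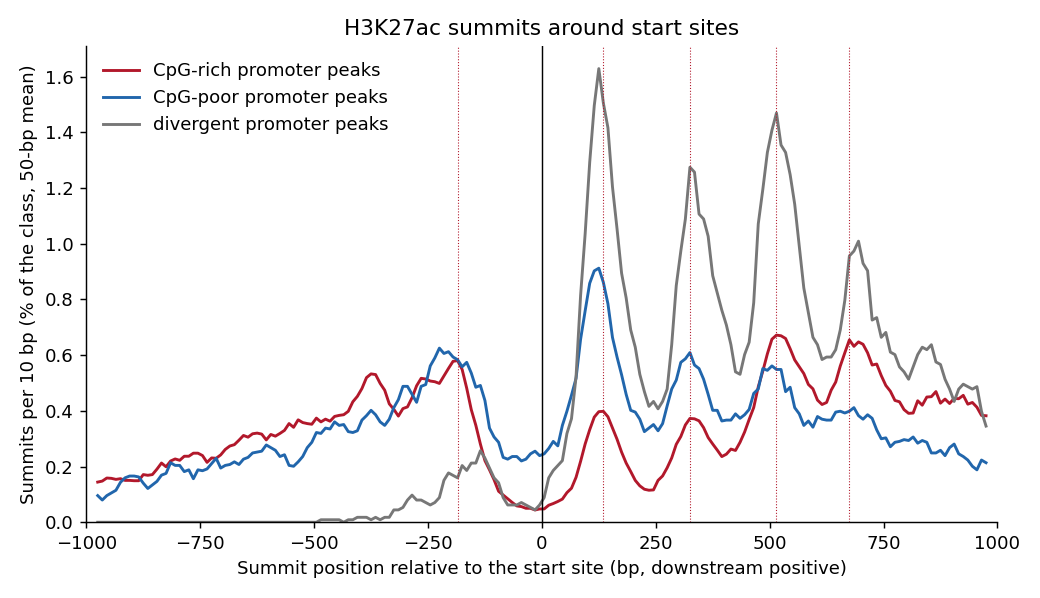
Summits per 10 bp (vertical axis, percent of the class, mean over 50 bp) by position relative to the start site (horizontal axis, bp) for CpG-rich (red), CpG-poor (blue) and divergent (grey) promoter peaks; dotted lines mark the 5 maxima of the CpG-rich class. The red line is lowest at the start site and is higher at 515 than at 135 bp downstream.

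Summits lay farther from the start site where the CpG-rich core was longer. The core was the run of 200-bp windows around the start site with a CpG o/e of at least 0.6 and a GC content of at least 50%. It was present at 92.0% of the CpG-rich start sites and reached a median of 190.0 bp upstream and 410.0 bp downstream. Where it reached under 200 bp downstream, downstream summits had a median distance of 624 bp (587 to 652 bp, 1461 peaks), and where it reached 800 to 1200 bp, 1209.5 bp (1177 to 1254 bp, 686 peaks). Upstream the median distance was 394 bp (382 to 413 bp) for cores under 200 bp and 1041 bp (978 to 1159 bp, 93 peaks) for cores of 800 to 1200 bp. The bin of upstream cores over 1200 bp held 15 peaks. Summit distance grew less than the core did. Downstream, the share of summits outside the core was 94.2% for cores under 200 bp and 67.4% for those over 1200 bp. The median distance beyond the edge was 508 and 200.5 bp. Median summit distance also rose with GC content at the start site, from 470.5 bp under 50% GC to 987 bp at 70% and over. The part of GC content was not tested. Of the 15076 summits within 2 kb of a start site that had a core, 1741 lay inside it (11.5%, 11 to 12.1%). The cores took up 17.7% of those windows. The other classes did not show a lower share inside. At CpG-poor start sites with a core 7.13% of summits lay inside (6.02 to 8.43%), and the cores took up 5.36%. At divergent ones the values were 17.2% and 16.7%, but 96.1% of the summits of that class were downstream, so they are not like for like.

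**Figure D4:**
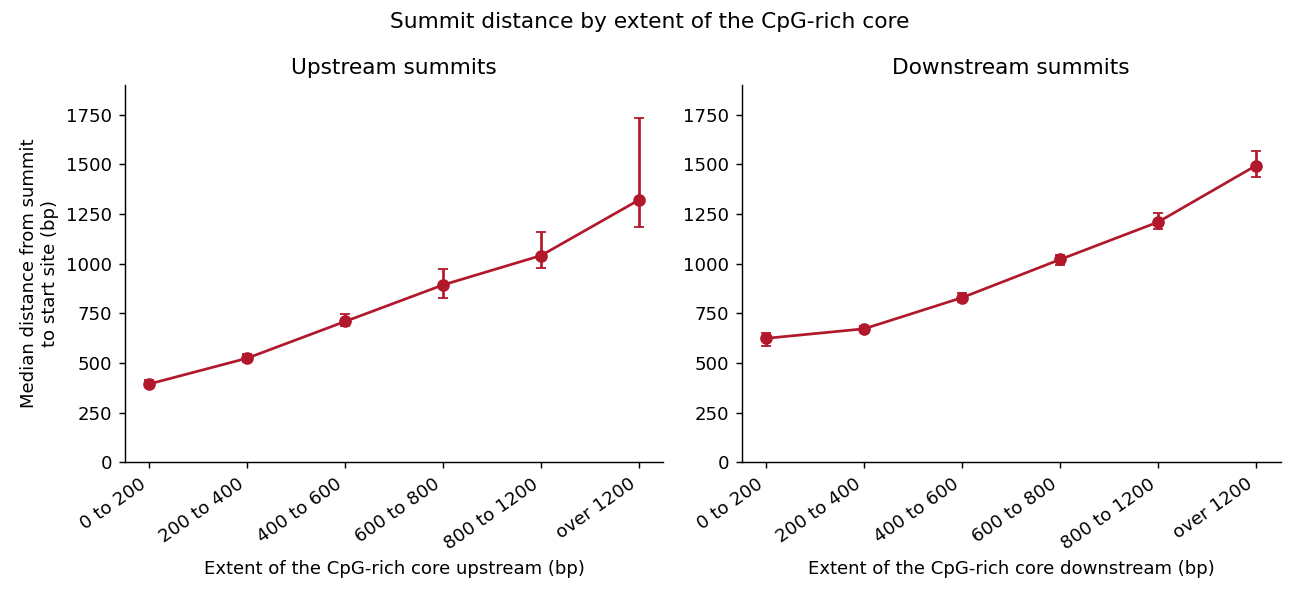
Median distance from the summit to the start site (vertical axis, bp, with 95% intervals) by how far the CpG-rich core reached on that side (horizontal axis, bp), for upstream (left) and downstream (right) member peaks. On both sides the median grows with the core, downstream from 624 to 1494 bp.

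The sequence under the summits changed along the same axis. Median GC content in the 147 bp at the summit was 61.2% for summits 0 to 250 bp downstream, 55.1% at 250 to 500 bp, 49.7% at 500 to 750 bp and 45.6% at 1000 to 1250 bp. Median CpG o/e fell over the same bins from 0.783 to 0.342. Members were chosen for a CpG o/e of at least 0.6 within 500 bp of the start site. A higher CpG o/e near it than farther out is therefore partly set by the choice of members. Median fold enrichment was highest at 500 to 750 bp downstream, at 6.08, and was 5.65 from 500 bp upstream to 500 bp downstream. By annotation, 9507 summits lay in introns (58.1%), 5447 outside genes (33.3%) and 1415 in exons (8.64%).

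Start sites that held certain factor motifs were occupied more often. Motifs were searched on both strands from 250 bases before to 50 bases after the start site, as exact letters. The ETS site CCGGAAG was in 21.6% of occupied and 7.76% of empty CpG-rich start sites, and in 11.5% of all coding start sites. Of 1820 CpG-rich start sites that held it 85.0% had a peak (83.3 to 86.6%), against 63.3% of the others. Their median CpG o/e was 0.787 against 0.784 in the others, and their median GC content was 59.4% against 62.5%; the part of GC content was not tested. In the CpG o/e bin of 0.6 to 0.7, 79.3% were occupied with the site (75.4 to 82.8%) and 52.3% without it (50.2 to 54.4%), and in the bin of 0.9 to 1.0, 91.8% and 75.3%.

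Other motifs of housekeeping promoters went the same way. Occupancy was 86.6% with TCTCGCGA, the site of ZBTB33 and related factors (81.7 to 90.4%, 232 start sites, in 1.36% of all coding start sites), and 66.6% without it. It was 81.1% with the CREB and ATF site TGACGTCA (in 2.38% of all), 79.9% with the NRF1 site GCATGCGC (3.47%) and 79.5% with the YY1 site AGATGGCG (2.43%), each against 66.2 to 66.5% without it. Base composition moved with these motifs too. Median CpG o/e was 0.846 with the ZBTB33 site against 0.783 without it, and 0.811 with the YY1 site against 0.784. Median GC content was 59.9% with the CREB and ATF site and 60.3% with the NRF1 site, each against 62.1% without it. The part of these differences in occupancy was not tested. The most common motif differed little: the GC box GGGCGG was in 74.0% of occupied and 72.9% of empty CpG-rich start sites, and in 47.5% of all coding start sites. The E-box CAGCTG, which myogenic factors bind, was in 13.1% of occupied and 13.6% of empty ones (15.8% of all), the E-box CACGTG in 11.1% and 10.6% (8%), the AP-1 site TGACTCA in 2.74% and 2.30% (4.59%) and CCAAT in 36.5% and 33.1% (37.6%). TATAAA, searched 45 to 16 bases before the start site on the coding strand, was in 0.854% of occupied and 1.36% of empty ones (2.65%). None of these motifs contains another, and a match is not evidence of binding.

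The strongest members were led by 1 peak far above the rest. The peak in an intron of Nras, 604 bp downstream, held 1969 fragments over a background of 5.00, a fold enrichment of 290.4. The exact Poisson 95% interval, 1883 to 2058, takes these as separate molecules, which cannot be told here from copies of 1 molecule. What raised this peak so far above the others was not tested. Nras had 6 member peaks. C1d, an exosome cofactor, came next with 70 fragments (54.6 to 88.4), a fold enrichment of 30.6 and a single member peak of 1663 bp. It was followed by Actr3, a subunit of the actin-nucleating ARP2/3 complex (25.9), Krcc1 (25.5), Ubtf, a factor of RNA polymerase I (24.5), Pafah1b1, a dynein regulator (23.0), Tmbim1 (22.9), Zfp248 (22.5), Ptma (22.4) and Rfesd (22.4). From C1d to Rfesd these summits held 51 to 75 fragments, and the intervals of neighbours in the order overlap.

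The widest members were at other genes. Snx9, a sorting nexin of endocytosis, had a peak of 4112 bp with its summit 3533 bp downstream. Hoxa11, a limb patterning gene, had one of 4011 bp, Capn2, a calpain protease, one of 3996 bp, Sptbn1, a spectrin, one of 3990 bp and Plekhg3 one of 3436 bp. Their fold enrichments were 14.3, 12.4, 13.3, 7.98 and 16.4. None of these 5 genes was among the 10 highest in fold enrichment.

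Genes of basic cell functions were nearly all occupied. Counts are of genes with a CpG-rich start site, beside 65.8% of all such genes, and levels are the highest fold enrichment of a gene, beside a median of 7.11 over all occupied genes. Of the tRNA synthetases, which load amino acids, 12 of 12 had a member peak (median 7.89), with Aars (14.7), Lars (10.6) and Nars (9.67) highest and Tars (8.51) near the median. Of proteasome subunits 26 of 27 did (96.3%, 81.7 to 99.3%, median 9.10), with Psmd6 (17.7), Psmb7 (16.4) and Psmc4 (13.4) highest and Psma1 (9.10) at the median; the peak in the window of Psma4 was nearer another start site. Of the spliceosome core 23 of 24 did (median 7.37), with Prpf8 (17.7), U2af1 (16.6) and Sf3b1 (15.7) highest and Hnrnpk (7.37) at the median, and Snrpc had no listed peak.

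Transcription and translation genes were similar. Of RNA polymerase II and its general factors 22 of 23 had a member peak (95.7%, median 6.95), with Gtf2f1 (13.0), Cdk9 (11.9) and Taf7 (10.7) highest, Polr2d (6.96) near the median and none listed at Polr2j. Of translation factors 22 of 25 did (88.0%, 70.0 to 95.8%, median 8.62), with Eif3e (12.7), Eif2s2 (11.4) and Eif3a (11.2) highest and Eif3d (8.65) near the median. Eif2b5 and Eif3c had no listed peak, and at Eef2 a peak number was absent nearby. Most of the genes in these lists without a CpG-rich start site had divergent ones, and 20 of 20 tRNA synthetases and 31 of 31 proteasome genes had a peak in some promoter window. Among the strongest 25% of the peaks the shares were 66.7% for tRNA synthetases, 85.2% for the proteasome, 58.3% for the spliceosome, 60.9% for RNA polymerase II and its factors and 80% for translation factors, against 40.5% of all CpG-rich genes, which lies inside the intervals of the tRNA synthetases (39.1 to 86.2%) and of the spliceosome (38.8 to 75.5%).

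Chromatin genes held the proteins that read CpG islands and write the mark itself. Of the proteins that bind CpG islands or modify them 23 of 29 had a member peak (79.3%, 61.6 to 90.2%, median 6.51), with the demethylase Tet2 (16.4), the methyltransferase Dnmt1 (11.7) and the Polycomb subunit Eed (10.1) highest and Ezh1 (6.51) at the median. Of the acetylation genes 20 of 22 did (90.9%, median 7.16), with Ep300 (10.4), Brpf1 (9.96) and Kat2b (9.53) highest and Brd7 (7.37) near the median, and none listed at the deacetylases Hdac1 and Sirt1. Of the immediate-early genes, which respond quickly to growth signals and stress, 25 of 29 did (86.2%, 69.4 to 94.5%, median 6.51), with Ier2 (11.5), Srf (11.2) and Jun (10.6) highest and Klf2 (6.51) at the median. Ccn2, Egr3, Fosb and Nr4a1 had no listed peak. At a -log10 q of at least 5 the immediate-early share was 62.1% (44.0 to 77.3%), an interval that includes the 54.9% of all CpG-rich genes. The interval of the CpG island binders includes the 65.8% of all CpG-rich genes. Among the strongest 25% of the peaks the shares were 41.4% for these binders, 44.8% for the immediate-early genes and 50% for the acetylation genes, and each interval includes the 40.5% of all CpG-rich genes.

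CpG-rich regulators of other tissues were mostly empty. Of 42 such genes, among them factors of brain, gut and heart, 6 had a member peak (14.3%, 6.72 to 27.8%). Among them were Pax5, a B cell factor (6.94, 15 fragments, interval 8.40 to 24.7), Sox2, a factor of stem cells (6.08), Pax6, an eye factor (5.22), Gata3 (4.45) and Nkx6-1 (4.36). The median number of member peaks was 1.5 in these 6 genes and 2.00 over all occupied genes.

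**Figure D5:**
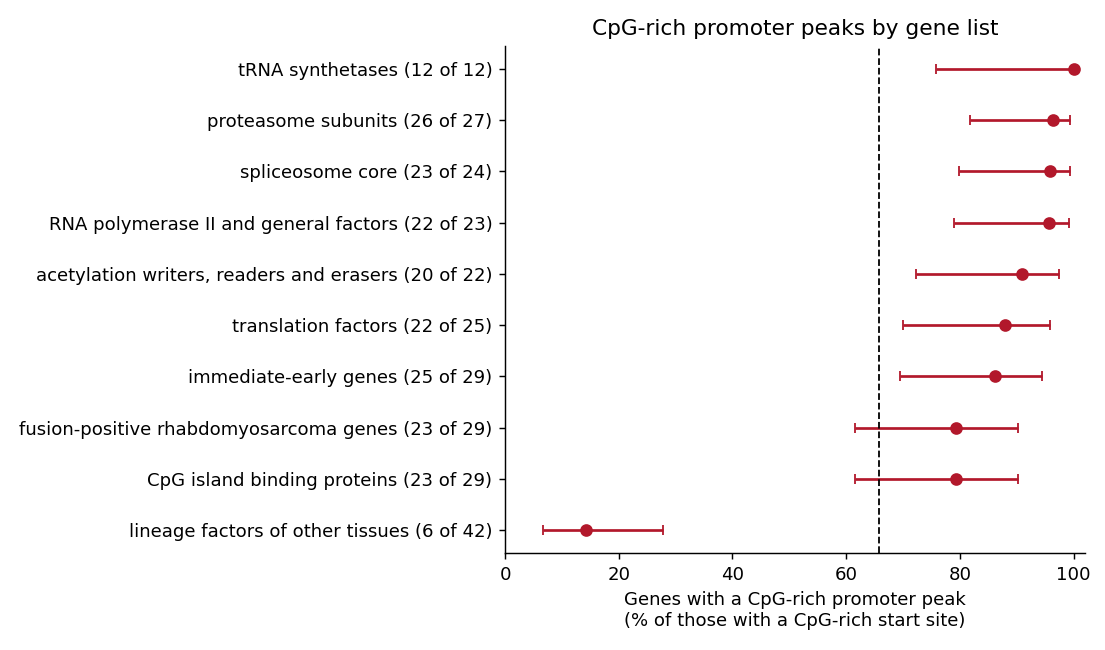
Share of genes with a CpG-rich promoter peak among those with a CpG-rich start site (horizontal axis, percent, with Wilson 95% intervals) for 10 gene lists (vertical axis, with counts); the dashed line marks 65.8%, the share of all such genes. Regulators of other tissues lie at 14.3%, and the other lists between 79.3 and 100%.

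Genes of FP-RMS with a CpG-rich start site were occupied at 23 of 29 (79.3%, 61.6 to 90.2%, median 7.80), an interval that includes the 65.8% of all CpG-rich genes. With windows of 1 kb the order turned, to 62.1% (44.0 to 77.3%) against 63.4%. The highest were Nras (290.4), Pax3 (18.1, 46 fragments), which carries the fusion allele and whose summit lay 2073 bp downstream, and the phosphatase Dusp4 (10.8), and Twist1 (7.80) was at the median. Alk, Fbn2, Fgfr4, Igf2, Mycn and Tfap2b, which number 6 and are named after their values were seen, had no listed peak. Over all 35 genes of the list, 25 had a peak in some promoter window (71.4%, 54.9 to 83.7%). Of the 5 with CpG-poor start sites only, Cdh3 had a promoter peak, and Ccnd2, Gli1, Myod1 and Myog had none listed. Cdkn2a, named after its values were seen, had 5 member peaks, the strongest with a fold enrichment of 6.82 (15 fragments, 8.40 to 24.7) and its summit 1111 bp downstream. Which part of Cdkn2a is floxed is not given in the sources used here, so these peaks do not check the deletion.

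Cell type markers could say little, because most of them have CpG-poor start sites, where 19.8% of 11303 genes had an assigned peak. Of 12 myogenic markers, 10 of them CpG-poor, only Myf6 had a peak in any promoter window (8.33%, 1.49 to 35.4%). The other 11 had no listed promoter peak, among them the defining markers Myod1, Myog and Myf5 and the CpG-rich Des and Pax7. Of 8 endothelial markers, 7 of them CpG-poor, 0 had one (interval 0 to 32.4%). Of 8 immune markers, all CpG-poor, only Cd68 did (12.5%, 2.24 to 47.1%). Of 8 fibroblast markers Col3a1 and Pdgfra did (25%, 7.15 to 59.1%), the latter with a member peak of fold enrichment 5.35. The interval of each of these lists includes 19.8%, but that share counts only peaks assigned to CpG-poor start sites. The marker lists count any promoter peak and hold few genes, so this comparison decides nothing.

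Genes with alternative promoters, and promoters with a noncoding neighbour, were compared within the same list. Of 779 genes with a CpG-rich and a CpG-poor start site over 4 kb apart, 255 had a peak only at the CpG-rich one (32.7%), 53 only at the CpG-poor one (6.80%), 202 at both and 269 at neither. Of 1105 CpG-rich start sites with a noncoding start site pointing away within 1 kb upstream, 73.5% were occupied (70.8 to 76.0%), against 66.3% (65.3 to 67.2%) of 9560 without one, and their median CpG o/e was 0.819 against 0.780. Upstream summits made up 41.7% (39.6 to 43.9%) of their member peaks, against 37.1% (36.3 to 37.9%).

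By chromosome, the occupied share of CpG-rich start sites lay between 62.8 and 73.7% on the autosomes. On chromosome X it was 45.9% (40.3 to 51.6%, 292 start sites), where the whole list had 9.96 peaks per Mb, against 35.8 to 79.4 on the autosomes. Chromosome 11 had the most peaks of the list per Mb, 79.4, while its occupied share, 69.9% (66.8 to 72.8%), lay within the range of the other autosomes. On chromosome Y 0 of 5 start sites had a peak, which allows a share of up to 43.4%.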

How the data were processed

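H3K27ac was profiled by CUT&RUN, and the peak list of MCP H3K27ac replicate 5 was used. By the study's methods, read pairs were mapped to mm10 with bowtie, problematic regions were removed and peaks were called against IgG with MACS1.4. The submitters' processing notes name BWA and MACS2. Which of these made the list used here is not settled, so removal of problematic regions from it is not certain. The deposited fold enrichment is a ratio to the local background, and the deposited list gives -log10 p and -log10 q (largest q 0.0471). Peak numbers in the list skip 584 values, and what stood there is not known here.

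Fragments at each summit were solved from fold and p with 1 scale, 0.885. Whole numbers solved 100% of the list, against 0.250% with a scale 3% off. The tolerance was 0.01 and was wider for the largest signals, so the count at Nras is less firmly fixed. At 97.2% of peaks the solution was the only one. The fragment numbers are inferences, and copies of 1 molecule cannot be told from separate molecules. Start sites were those of curated RefSeq transcripts (25999 of 21000 genes). Shares have Wilson 95% intervals and medians order-statistic intervals. No test was made. Maxima had to rise by 6 counting errors in 50-bp sums, a limit set after the positions were seen, because a looser one called maxima in evenly spread simulated positions. Steps were tested on simulated data. Printed promoters were read from RefSeq GRCm38, and 7 of 8 are also in its promoter table. Genes were named by a fixed rule: the 10 highest in fold enrichment, the 5 with most peaks, the 5 widest, 3 either side of the threshold, and in each list the 3 highest, the one nearest the median and up to 5 empty ones; 1 item this rule names is not reported here. The members and lists were chosen with earlier results of these data known. Python 3, numpy, pandas and scipy were used.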

Additional observations from a re-analysis of the deposited data

How the results depend on the processing

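No paired analysis was possible because 1 peak list has no second group or replicate. Besides the main settings, 7 alternatives were run, 6 of them planned. Moving the limit for divergent start sites to 2 kb moved none of the values beyond its interval. A CpG o/e of at least 0.75 left 10821 peaks, 72.1% of start sites occupied, 61.1% of summits downstream, 1.21% within 100 bp, a median distance of 772 bp, a width of 199 bp and 72.7% of start sites with several peaks. Windows of 1 kb gave 64.0% occupied, 57.5% downstream, 2.51% within 100 bp, a distance of 563 bp, a fold enrichment of 5.65, a width of 213 bp, 59.7% with several peaks and 15% of summits inside the core. A -log10 q of at least 5 left 9833 peaks, 56.2% occupied, a distance of 661 bp, a fold enrichment of 6.74, a width of 294 bp, 53.2% with several peaks and 12.9% inside the core. The strongest 25% of the peaks left 5635 members, 41.9% occupied, 64.0% downstream, 1.65% within 100 bp, a distance of 669 bp, a fold enrichment of 8.16, a width of 429 bp and 35.1% with several peaks. With 1 start site per gene 1.5% of summits lay within 100 bp, at a median distance of 734 bp, and 75.7% had several peaks. With predicted start sites added, chosen after seeing the data, the values were 3.61%, 670.0 bp and 57.6%, with 12.2% inside the core. Stricter limits on strength leave fewer peaks by construction. Among gene lists, the strongest 25% gave the shares printed beside the lists, 58.6% of the FP-RMS genes, 4.76% of the regulators of other tissues and 40.5% of all CpG-rich genes; windows of 1 kb turned the order of the FP-RMS genes. Median depth of 15 fragments limits single peaks, and nothing here bears on other tumors.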
